A study of Mus musculus with 36 samples.

Results

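The 36 genes described here encode the machinery of G2 phase and mitosis in mouse cells. They were taken by gene symbol, and all 36 were found among the 20325 genes quantified in every library. Their products fall into 7 roles. Ccna2, Ccnb1, Ccnb2, Cdk1, Aurka, Plk1 and Melk are cyclins and kinases, most of them acting at mitotic entry. Bub1, Bub1b, Ttk, Mad2l1, Ndc80, Nuf2, Cenpa, Cenpe and Cenpf belong to the kinetochore and the spindle checkpoint. Aurkb, Birc5, Cdca8 and Incenp form the chromosomal passenger complex. Kif11, Kif2c, Kif4, Tpx2, Nusap1 and Hmmr are spindle motors and microtubule-binding proteins. Kif20a, Kif23, Prc1, Anln and Ect2 act at the central spindle and in cytokinesis. Cdc20, Ube2c and Espl1 act at the exit from mitosis, and Mki67 and Top2a act on chromosome surface and topology.

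In a dividing cell, cyclin B bound to CDK1 drives entry into mitosis, and the anaphase-promoting complex with its activator CDC20 destroys that cyclin and lets sister chromatids part. The transcripts of most of these genes accumulate in G2 and fall to a low level after division. Repression in resting cells runs through the DREAM complex at the cell cycle homology region, and activation through B-MYB and FOXM1. Embryonic stem cells are known for a short cell cycle with brief gap phases, whereas cultured fibroblasts slow as they age.

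The study asked how SGC0946, a chemical inhibitor of the histone H3 methyltransferase DOT1L, changes transcription while fibroblasts are reprogrammed. Polyadenylated RNA was sequenced in 36 libraries that fall into 18 groups of 2. Mouse embryonic fibroblasts (MEFs) were of stage E13.5 and homozygous for a doxycycline-inducible cassette of Oct4, Klf4, Sox2 and c-Myc, joined by 2A and IRES elements, at Col1a1 and heterozygous for rtTA at Rosa26, which every MEF-derived group carried, induced or not. The timecourse had uninduced MEFs, cells at day 2 of doxycycline with DMSO (the vehicle) or SGC0946, and cells at day 4. The day 4 cells had DMSO throughout, or the inhibitor on days 0 to 2 (early window), 2 to 4 (mid window) or 0 to 4 (full window). In the sort experiment, cells were separated by surface CDH1 (E-cadherin) at day 3.5, and each fraction was kept on doxycycline with DMSO or SGC0946 until day 5.5. In the lentivirus experiment, MEFs carried an empty virus or one that expresses Cdh1, and were left uninduced or were collected at day 2 with DMSO or SGC0946. The V6.5 embryonic stem cells (ESCs) were depleted of feeder cells 24 h before harvest.

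Reprogramming cells and ESCs grew on irradiated feeder MEFs in a medium with leukemia inhibitory factor, and uninduced MEFs grew in fibroblast medium. Differences between MEFs and induced cells therefore join doxycycline, medium and feeders, which cannot be told apart. Totals ran from 18.5 M to 50.9 M expected counts per library. Summed over 6 fibroblast markers, levels were 18936 to 19020 counts-per-million units (CPM) in timecourse MEFs and 127 to 145 CPM in ESCs. Summed over 6 ESC markers, they were 2871 to 3098 CPM in ESCs and 0.481 to 0.588 CPM in timecourse MEFs. Cdh1 stood at 171 and 179 CPM in MEFs with the Cdh1 virus and at 0.412 and 0.486 CPM with the empty virus. A source label of 1 library, MEF replicate 2 carrying Cdh1 virus, named day 2 cells while its title named MEFs, and it was kept with the MEFs.

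Levels below are CPM in each library of a group, and log2 fold changes carry their standard error. A gene was called at an adjusted p under 0.05 in edgeR's quasi-likelihood test with Benjamini-Hochberg adjustment over all genes tested, and all adjusted p-values below come from that test. Nothing in the labels states whether both libraries of a group were grown as separate cultures, and the p-values therefore reflect only how far these samples spread. In bulk RNA, fewer dividing cells and less mitotic RNA in each dividing cell cannot be told apart. All 36 genes passed the filter on low counts in every fit.

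Promoters of these genes share letters that the choice of genes did not use. RefSeq windows (build GRCm38.p6) of 300 bases, from 250 before to 50 after the annotated start, were matched for 31 of the 36 genes; no window was matched for Aurkb, Kif20a, Ccna2, Tpx2 or Incenp. The core of the cell cycle homology region, TTTGAA on either strand, was in 23 of 31 (74.2%), against 20.2% of all 27025 genes with a window and 17.9% of all 32851 windows. Within 50 bases of the start it was in 21 of 31 (67.7%), against 5.72% of all genes and 4.94% of all windows. The CCAAT box, CCAAT on either strand, was in 23 of 31 (74.2%), against 41.1% of all genes and 37.4% of all windows. Both motifs stood together in 20 of 31 (64.5%), against 7.97% of all genes and 6.95% of all windows. The stretches from 170 bases before to 20 after the start are shown for 3 genes that hold both motifs and for Ccnb1, whose 300-base window holds no TTTGAA. All 4 genes lie on the minus strand, the letters run 5′ to 3′ in the direction of the gene, and capitals mark TTTGAA or its complement and CCAAT or its complement ATTGG. The coordinates are chr9:70421535-70421724 for Ccnb2, chr10:69352893-69353082 for Cdk1, chr4:118437324-118437513 for Cdc20 and chr13:100786467-100786656 for Ccnb1.
Ccnb2: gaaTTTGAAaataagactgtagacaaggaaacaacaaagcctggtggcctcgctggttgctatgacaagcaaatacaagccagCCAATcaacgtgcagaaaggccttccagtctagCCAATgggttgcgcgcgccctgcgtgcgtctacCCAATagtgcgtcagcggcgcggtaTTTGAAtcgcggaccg
Cdk1: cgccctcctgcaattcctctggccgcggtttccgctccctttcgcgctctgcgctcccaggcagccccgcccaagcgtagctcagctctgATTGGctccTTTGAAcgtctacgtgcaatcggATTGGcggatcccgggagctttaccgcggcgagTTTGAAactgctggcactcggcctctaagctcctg
Cdc20: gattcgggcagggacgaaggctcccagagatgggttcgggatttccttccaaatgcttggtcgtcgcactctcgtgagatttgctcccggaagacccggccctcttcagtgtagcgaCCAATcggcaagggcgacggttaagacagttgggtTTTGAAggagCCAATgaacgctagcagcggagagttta
Ccnb1: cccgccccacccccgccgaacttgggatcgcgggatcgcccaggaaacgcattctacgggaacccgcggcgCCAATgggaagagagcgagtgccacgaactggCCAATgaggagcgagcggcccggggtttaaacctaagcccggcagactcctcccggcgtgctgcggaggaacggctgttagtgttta
In Ccnb2, TTTGAA stood at 5 to 10 and again at -167 to -162 from the start, and in Cdc20 at -18 to -13. In Cdk1 it stood at -71 to -66 and at -15 to -10. A match is a description of letters and not evidence of binding. Only TTTGAA was searched, so a window without it, as for Ccnb1, was not shown to lack other forms of the region.

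By day 2 of doxycycline, 33 of the 36 genes had risen over MEFs and none had fallen, with a median log2 change of 0.49. Over all 14473 genes tested, 40.4% rose and 34% fell, with a median of 0.06. Mki67, the Ki-67 proliferation antigen of the chromosome surface, stood at 408 and 465 CPM in MEFs and at 807 and 768 CPM at day 2. Ect2, the RhoA exchange factor of cytokinesis, rose furthest, from 71.1 and 77.4 CPM to 146 and 149 CPM. Its log2 change was 0.99 ± 0.04 (adjusted p = 3.24e-24), and its day 2 libraries lay far above those of MEFs. Cenpa, the histone variant that marks centromeres, rose from 55.9 and 52.4 CPM to 101 and 97.5 CPM (log2 0.88 ± 0.04). Aurkb, the kinase of the passenger complex, rose from 53.6 and 48.6 CPM to 93 and 92.3 CPM (0.86 ± 0.05). For Mki67 the log2 change was 0.85 ± 0.04. In 35 of the 36 genes both day 2 libraries lay above both MEF libraries, as in 46.1% of all genes tested.

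The rise at day 2 reached all 7 roles but was unequal within them. All 7 entry genes rose, with a median log2 change of 0.50. Among them Ccnb1, cyclin B1, went from 166 CPM in both MEF libraries to 235 and 239 CPM, and its partner Cdk1 from 174 and 165 CPM to 237 in both. Plk1, the polo-like kinase, had 115 and 108 CPM in MEFs and 156 and 155 CPM later. The log2 change was 0.51 ± 0.03 for Ccnb1, 0.48 ± 0.03 for Cdk1 and 0.48 ± 0.04 for Plk1, values that differ by no more than their errors. The 3 genes of mitotic exit had the highest role median, 0.70, and central spindle genes the lowest, 0.29. Top2a, which untangles sister chromatids, stood at 449 and 476 CPM in MEFs and 621 and 612 CPM at day 2. Bub1b, which encodes the checkpoint protein BUBR1, stood at 106 and 103 CPM and then at 163 and 161 CPM, and Birc5 (survivin, of the passenger complex) at 97.8 and 89.5 CPM and then at 132 and 125 CPM.

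Ndc80, Nuf2 and Prc1 were not called at day 2. Ndc80 and Nuf2 are partners in the NDC80 complex that holds microtubules at the kinetochore. Ndc80 stood at 45.5 and 48.1 CPM in MEFs and 47.7 and 46.7 CPM at day 2, and the groups overlapped (0.01 ± 0.05, adjusted p = 0.832). Nuf2 stood at 57.1 and 55.8 CPM and then at 60.3 and 59.2 CPM (0.08 ± 0.05, adjusted p = 0.131). Prc1, which bundles microtubules of the central spindle, stood at 184 and 187 CPM and then at 191 and 188 CPM (0.03 ± 0.03, adjusted p = 0.399). Kif23, the central spindle kinesin that works beside Prc1, did rise (0.29 ± 0.04, adjusted p = 5.02e-09).

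**Figure D1:**
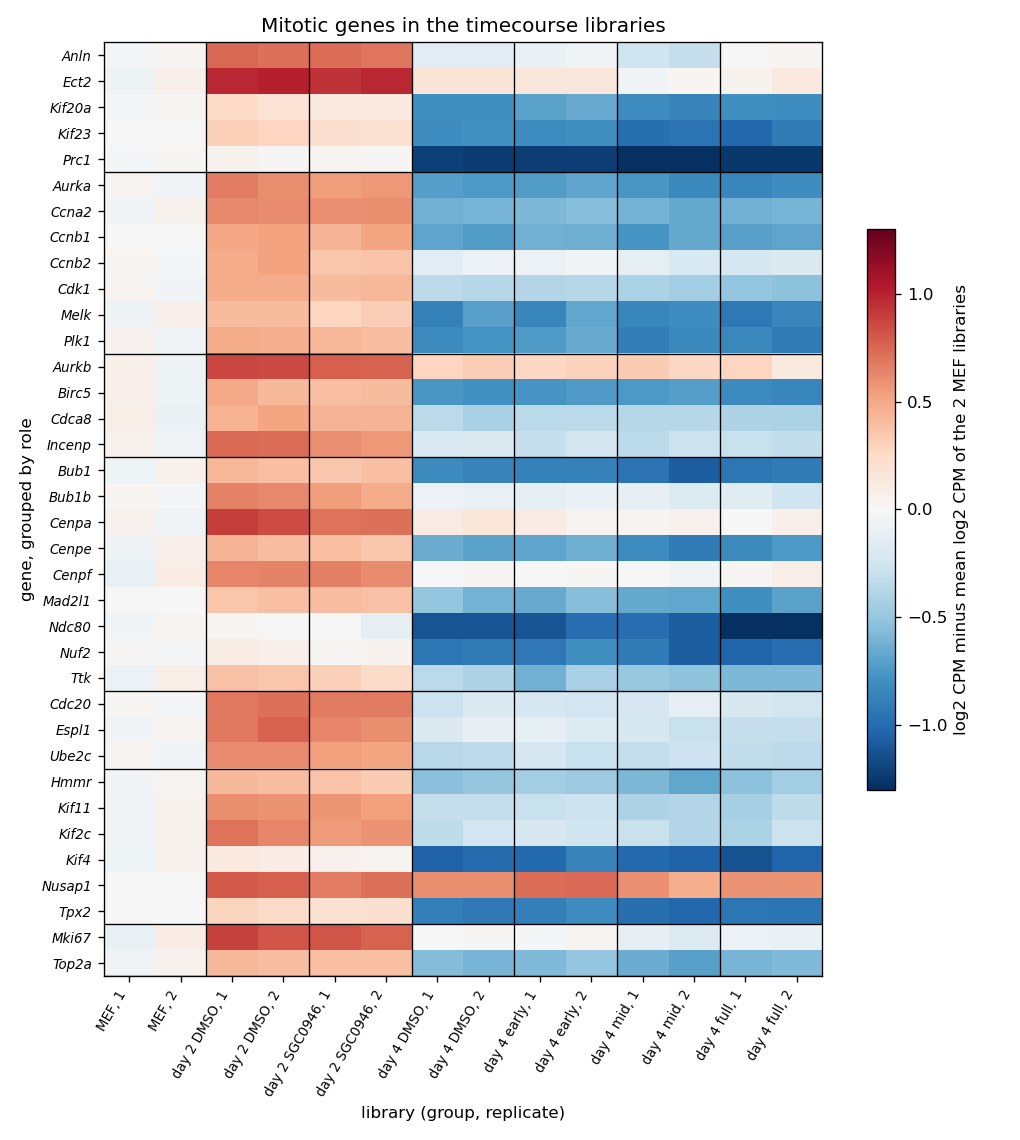
Each cell gives the log2 CPM of 1 gene in 1 timecourse library minus the mean of the 2 MEF libraries, with genes grouped by role and columns grouped by treatment. The day 2 columns are red for nearly all genes and the day 4 columns blue for most, while Nusap1 and Aurkb stay red at day 4.

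From day 2 to day 4 all 36 genes fell, with a median log2 change of -0.95 and a range of -1.37 to -0.19. Among all 14473 genes, 39.7% fell and 38.1% rose, with a median of 0.00, and the day 2 libraries are shared with the comparison above. Aurka, the kinase of spindle poles, fell furthest, from 124 and 119 CPM to 47.5 and 46.5 CPM (-1.37 ± 0.04, adjusted p = 1.55e-28). Plk1 fell to 62.6 and 65 CPM (-1.29 ± 0.04), Bub1, a checkpoint kinase, from 101 and 98.5 CPM to 42.3 and 41 CPM (-1.26 ± 0.04), and Prc1 to 79.9 and 78.9 CPM (-1.25 ± 0.03). Each of the 36 had both day 4 libraries below both day 2 libraries, as had 44.7% of all genes tested. The entry genes fell most as a role, with a median of -1.22, and the other 6 role medians lay between -1.02 and -0.89.

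Ccnb1 fell to 103 and 100 CPM, Cdk1 to 134 and 131 CPM and Birc5 to 55.3 and 54.2 CPM. Mki67 fell to 436 and 441 CPM, Top2a to 312 and 304 CPM and Bub1b to 99.4 and 97.8 CPM. Nusap1, a microtubule-bundling protein of the spindle, fell least, from 78.8 and 77.5 CPM to 68.6 and 68.9 CPM (-0.19 ± 0.04, adjusted p = 8.85e-05).

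Day 4 cells were below MEFs for 30 genes and above them for 4, with a median of -0.46, where 41% of all genes were lower and 41.2% higher. Prc1 was lowest against MEFs (-1.22 ± 0.03, adjusted p = 8.13e-30), followed by Ndc80 (-1.12 ± 0.06) from 45.5 and 48.1 CPM to 21.5 CPM in both libraries, the chromokinesin Kif4 (-1.03 ± 0.05) from 76.9 and 82.6 to 38.4 and 39.9 CPM, and Nuf2 (-0.93 ± 0.05) to 29.5 and 29.8 CPM. These were the genes that had risen least, or were not called, at day 2. Nusap1 (0.60 ± 0.04), Aurkb (0.30 ± 0.05), Ect2 (0.17 ± 0.04) and Cenpa (0.13 ± 0.04) were still above MEFs. Aurkb stood at 61.9 and 63.7 CPM at day 4, and Cenpa at 58.4 and 60.4 CPM, where the MEF libraries lay below. Mki67 was not called between day 4 and MEFs (0.01 ± 0.04, adjusted p = 0.885), and this turned on the MEF libraries: the difference was -0.08 and called without MEF replicate 1, and 0.12 and called without MEF replicate 2. Bub1b was called lower at -0.08 ± 0.04 (adjusted p = 0.0457), a call that ended with upper-quartile scaling or on the TPM scale, where the difference was 0.00.

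Levels can be set between genes only per unit of transcript length. In transcripts-per-million units (TPM), Ube2c, the ubiquitin-conjugating enzyme of the anaphase-promoting complex, ranked first in timecourse MEFs (221 ± 0.438, SD, n = 2), at day 2 (346 ± 0.0919) and at day 4 (185 ± 3.14). Cdc20 was at 171 ± 2.4 TPM in MEFs and 285 ± 3.71 TPM at day 2. Cenpf, a very large kinetochore protein, and Espl1, the separase that cleaves cohesin, held the last 2 ranks in all 3 groups, with Cenpf at 15 ± 1.86 TPM in MEFs.

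Genes around the 36 were counted from other lists of the pathway. Over all genes, 40.4% rose and 34% fell by day 2, and 38.1% rose and 39.7% fell from day 2 to day 4. Of 55 other mitotic genes, 46 rose and 3 fell by day 2 (median 0.44), and from day 2 to day 4, 51 fell and 1 rose (-0.73). Ckap2, a spindle protein, rose by 1.11 ± 0.04 and Spc24, another subunit of the NDC80 complex, by 1.45 ± 0.05 at day 2, while Cenpt, Cks1b and Zwint fell. Of 16 DNA replication genes, 15 rose (0.57) and then all 16 fell (-0.89), with Mcm7, a subunit of the replicative helicase, at 1.12 ± 0.03 by day 2 and Rrm2, the ribonucleotide reductase subunit, at -1.92 ± 0.03 from day 2 to day 4. Of 18 condensin and cohesin genes, 16 rose and then 16 fell. The anaphase-promoting complex had 5 of 15 genes higher and 5 lower at day 2, near the shares of all genes. From day 2 to day 4 it had 10 lower and 2 higher, and Ube2s, its chain-extending enzyme, fell by 1.23 on the log2 scale.

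Among 25 transcription regulators of these genes, 19 rose and 1 fell by day 2 (median 0.35), and then 17 fell and 5 rose (-0.54). The shares of all genes, here and for the arrest genes below, were 40.4% higher and 34% lower by day 2. From day 2 to day 4 they were 38.1% higher and 39.7% lower. Foxm1 stood at 114 and 119 CPM in MEFs, 166 and 169 CPM at day 2 and 74.6 and 73.4 CPM at day 4, so that its day 4 libraries were the lowest. Its log2 change was 0.53 ± 0.04 (adjusted p = 1.94e-16) and then -1.18 ± 0.04. Mybl2, which encodes B-MYB, stood at 42.7 and 40.9 CPM, 99.2 and 102 CPM and 54.1 and 53.2 CPM. It rose by 1.26 ± 0.04 and fell by 0.90 ± 0.04. Of 11 cyclin-dependent kinase inhibitors and arrest genes, 2 rose and 5 fell by day 2, and from day 2 to day 4, 8 rose and 1 fell. Cdkn1c, the p57 inhibitor, fell by 3.76 ± 0.06 on the log2 scale and then rose by 4.37 ± 0.06, with Sesn1 (1.85 ± 0.07) and Cdkn1b, the p27 inhibitor (1.16 ± 0.05), also rising by day 4.

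Other cell markers moved with these days. Summed over 6 macrophage markers, none at 0 in any library, levels were 214 to 217 CPM in MEFs, then 29.1 to 32 CPM (day 2), then 110 to 116 CPM (day 4); all 6 fell and then all 6 rose. Summed fibroblast markers were 4813 to 4975 CPM at day 2 and 6132 to 6161 CPM at day 4. The summed level of the 36 mitotic genes was 4489 to 4608 CPM before induction, 6540 to 6646 CPM on day 2 and 3401 to 3405 CPM on day 4. The part of these markers in the result was not tested.

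Against this course the inhibitor moved the mitotic genes little. At day 2, 6 genes were lower with SGC0946 than with DMSO and none was higher, where 9.11% of all genes were lower and 8.73% higher. The median log2 difference was -0.06 and the lowest -0.17, and both inhibitor libraries lay below both DMSO libraries for 29 of the 36 genes, as they did for 31.1% of all genes tested. Cenpa stood at 101 and 97.5 CPM with DMSO and 88.3 and 88.7 CPM with the inhibitor (-0.17 ± 0.04, adjusted p = 0.002). Incenp, the scaffold of the passenger complex, stood at 163 and 162 CPM and at 148 and 145 CPM (-0.15 ± 0.04, adjusted p = 0.00189). Both pairs of libraries were clear of each other. Ccnb2, cyclin B2 (-0.13 ± 0.04), Bub1b (-0.12 ± 0.04), Espl1 (-0.11 ± 0.04) and the cytokinesis kinesin Kif20a (-0.09 ± 0.03) were the other 4. The count was 3 without either DMSO library or without inhibitor replicate 1, and 2 without inhibitor replicate 2, with Incenp called in all 4. It was 2 with upper-quartile scaling and 1 on the log2(TPM + 0.5) scale.

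At day 4 the 3 windows shared the same DMSO libraries. In the early window, after 2 days of inhibitor and 2 days without it, Kif20a alone was called, at 130 CPM in both DMSO libraries and 140 and 144 CPM (0.13 ± 0.03, adjusted p = 0.0156), where 3.19% of all genes were higher and 2.45% lower. It was no longer called without DMSO replicate 1, without DMSO replicate 2 or without early replicate 2. In the mid window, 9 genes were called, all of them lower, where 1948 of all 14473 genes were lower and 2020 higher, which is 27.4% in either direction. The median of the 36 was -0.07, and the 2 mid libraries agreed less well than those of the other timecourse groups (chi-square per gene 11.1, against 1.9 for day 4 with DMSO). Cenpe, the kinesin of the kinetochore (-0.19 ± 0.04, adjusted p = 0.00069), Bub1 (-0.17 ± 0.05), Ect2 (-0.17 ± 0.04) and Kif23 (-0.17 ± 0.04) had the largest differences. Ect2 stood at 83.3 and 83.2 CPM with DMSO and 72.5 and 75.6 CPM in the mid window, and Kif23 at 56 and 56.6 CPM and 49.7 and 50.3 CPM. In both genes the mid libraries lay below.

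In the full window 9 genes were lower and 1 was higher, where 15.8% of all genes were lower and 19% higher, with a median of -0.07. Ndc80 stood at 21.5 CPM in both DMSO libraries and 19.1 and 18.2 CPM in the full window (-0.20 ± 0.06, adjusted p = 0.00836). Ttk, the checkpoint kinase MPS1 (-0.20 ± 0.06), Mad2l1, the checkpoint protein MAD2 (-0.18 ± 0.05), and Cdk1 (-0.16 ± 0.03) came next. Cdk1 fell from 134 and 131 CPM to 120 and 117 CPM, with no overlap. Without DMSO replicate 1 the count of lower genes was 4. Both inhibitor libraries lay below both DMSO libraries for 5 genes in the early, 23 in the mid and 23 in the full window. The shares of all genes tested were 23.4%, 29.9% and 33.1%. They lay above for 11, 3 and 3 genes, against 26.4%, 34.3% and 33.3% of all genes. Summed macrophage markers were 91.4 to 93.5 CPM in the early, 112 to 116 CPM in the mid and 101 to 103 CPM in the full window, and the part of these markers was not tested.

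Anln, which encodes the cytokinesis scaffold anillin, went both ways at day 4. It stood at 275 and 274 CPM with DMSO, 285 and 293 CPM in the early window, 252 and 244 CPM in the mid window and 302 and 311 CPM in the full window. The 4 groups did not overlap. Anln was lower in the mid window (-0.15 ± 0.03, adjusted p = 0.000366) and higher in the full window (0.16 ± 0.03, adjusted p = 9.28e-05). Tested directly, full against mid was 0.30 ± 0.03 (adjusted p = 9.66e-10). At day 2 the inhibitor left it at 499 and 491 CPM beside 509 and 497 CPM with DMSO. The inhibitor's effect at day 4 in the full window exceeded that at day 2 by 0.18 ± 0.04 (adjusted p = 0.00419), a call that was lost without day 2 DMSO replicate 1 or without day 2 inhibitor replicate 2.

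The windows were also set against each other. Full against early, 15 genes were lower and Anln was higher (0.08 ± 0.03), where 14.4% of all genes were lower and 16.6% higher, and the count of lower genes was 7 without early replicate 2. Ndc80 (-0.27 ± 0.06) and Plk1 (-0.19 ± 0.04) had the largest differences. Plk1 stood at 67.1 and 70.7 CPM in the early window and 62.2 and 59.1 CPM in the full window. Both full libraries lay below both early libraries for 27 of the 36 genes and above for 2, against 32.1% and 32.2% of all genes. Full against mid, Anln, Hmmr, a hyaluronan receptor that also binds the spindle (0.14 ± 0.04), and Prc1 (0.13 ± 0.04) were higher and Ndc80 (-0.29 ± 0.06) was lower, where 11.6% of all genes were higher and 8.51% lower. Without mid replicate 2 the count of higher genes was 1. Between the effects at day 4 full and at day 2, 1 gene was higher and 1 lower, where 5.61% and 3.57% of all genes were. The lower one was Mad2l1 (-0.20 ± 0.07, adjusted p = 0.0475). It was called in 3 of 9 processing settings, and the call was lost for most libraries left out.

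**Figure D2:**
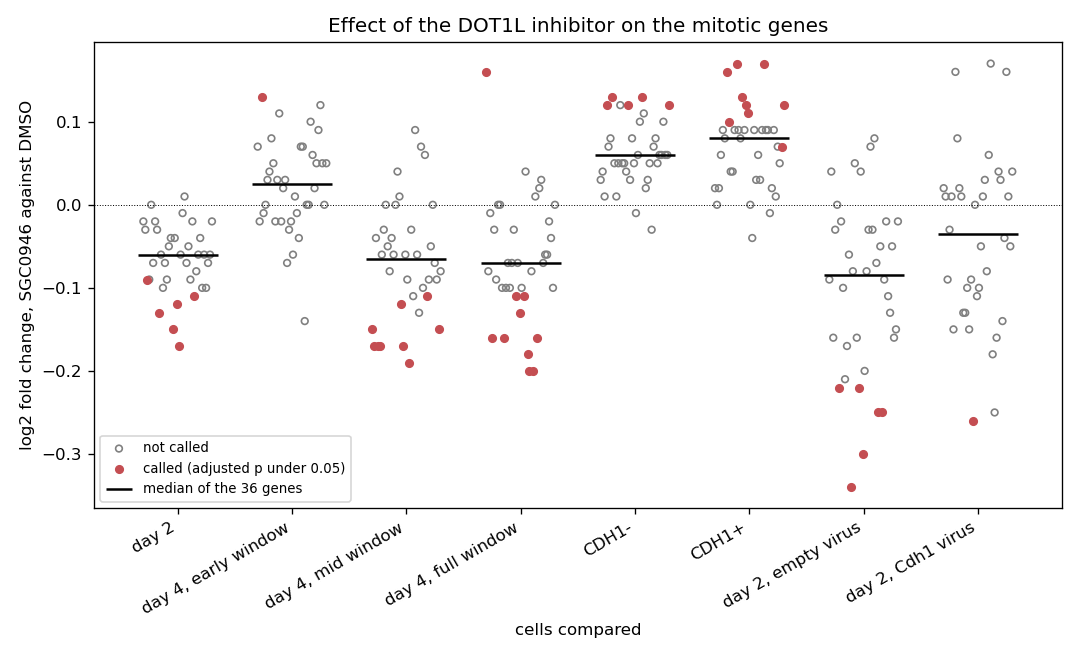
Each point is the log2 difference between SGC0946 and DMSO for 1 of the 36 genes in 1 setting, filled where called, and the bar is the median of the 36. Medians lie at -0.06 at day 2, -0.07 in the mid and full windows and 0.06 and 0.08 in the sorted CDH1- and CDH1+ fractions.

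Some regulators were lower with the inhibitor in the same libraries. Mybl2 stood at 99.2 and 102 CPM at day 2 with DMSO and 83.8 and 84.8 CPM with the inhibitor (-0.25 ± 0.04, adjusted p = 6.01e-06). It was lower in the mid window (-0.29 ± 0.04) and the full window (-0.24 ± 0.04) as well. Tfdp2, a dimer partner of E2F factors, was lower at day 2 (-0.42 ± 0.04), and Foxm1 by less (-0.13 ± 0.04). Of the 25 regulators, 8 were lower and 1 higher at day 2, where 9.11% of all genes were lower and 8.73% higher. Of the 16 replication genes 7 were lower, with Mcm6, of the replicative helicase, at -0.25 ± 0.03, and of the 55 other mitotic genes 9 were lower, with Ckap2 at -0.26 ± 0.03. In the full window 19 of the 55 were lower and 1 was higher, where 15.8% of all genes were lower and 19% higher. Cdkn1c was higher with the inhibitor at day 2 (0.54 ± 0.09) and lower in the full window (-0.64 ± 0.04).

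Sorted by surface CDH1 at day 3.5, the CDH1+ fraction held less of the mitotic transcripts at day 5.5 than the CDH1- fraction. In the DMSO libraries, 35 of the 36 genes were lower in the CDH1+ than in the CDH1- fraction and none was higher, where 13.8% of all genes were lower and 12.8% higher. The median log2 difference was -0.23 and the range -0.36 to -0.09, and in all 36 genes both CDH1+ libraries lay below both CDH1- libraries, as in 30.3% of all genes tested. Birc5 stood at 80.4 and 79.3 CPM in CDH1- cells and 62.8 and 61.4 CPM in CDH1+ cells (-0.36 ± 0.04, adjusted p = 1.43e-13). Nuf2 stood at 36.4 and 36.6 CPM and 29.4 and 28.2 CPM (-0.34 ± 0.05), and Kif2c, a kinesin that shortens microtubules at centromeres, at 73.5 and 72.3 CPM and 57.3 and 58.8 CPM (-0.33 ± 0.04). Bub1b stood at 93.7 and 93.2 CPM and 72.5 and 77.8 CPM. Each of these pairs was well separated.

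Mki67 stood at 465 and 447 CPM in CDH1- cells and 383 and 390 CPM in CDH1+ cells (-0.24 ± 0.03), and Top2a at 370 and 358 CPM and 308 and 302 CPM (-0.25 ± 0.03). Aurkb (-0.32 ± 0.05) and Ttk (-0.32 ± 0.06) were also among the furthest apart. Ccnb1 differed less, at 160 and 159 CPM and 149 and 143 CPM (-0.13 ± 0.03), and Cdk1 went from 158 and 157 CPM to 133 and 138 CPM. Nusap1, the gene that fell least by day 4, was the 1 not called, at 46.7 and 46.4 CPM and 44.2 and 43.3 CPM (-0.09 ± 0.05, adjusted p = 0.168). Passenger complex genes had the lowest role median, -0.30, and central spindle genes the highest, -0.14. Of the 16 replication genes 15 were lower (median -0.28), and of the 55 other mitotic genes 38 were lower and none higher. Foxm1 was lower (-0.26 ± 0.03), while Mybl2 was not called at 91.5 and 92.1 CPM and 93.8 and 91.7 CPM.

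All 6 macrophage markers were higher in the CDH1+ fraction, and their summed level was 62.3 to 64.4 CPM there against 9.98 to 10.3 CPM in the CDH1- fraction, with none at 0. Summed fibroblast markers were 5563 to 5570 CPM and 5371 to 5724 CPM. Cdh1 itself stood at 46.6 and 46 CPM and 7.27 and 7.24 CPM. The part of macrophages or feeder cells in the difference was not tested.

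**Figure D3:**
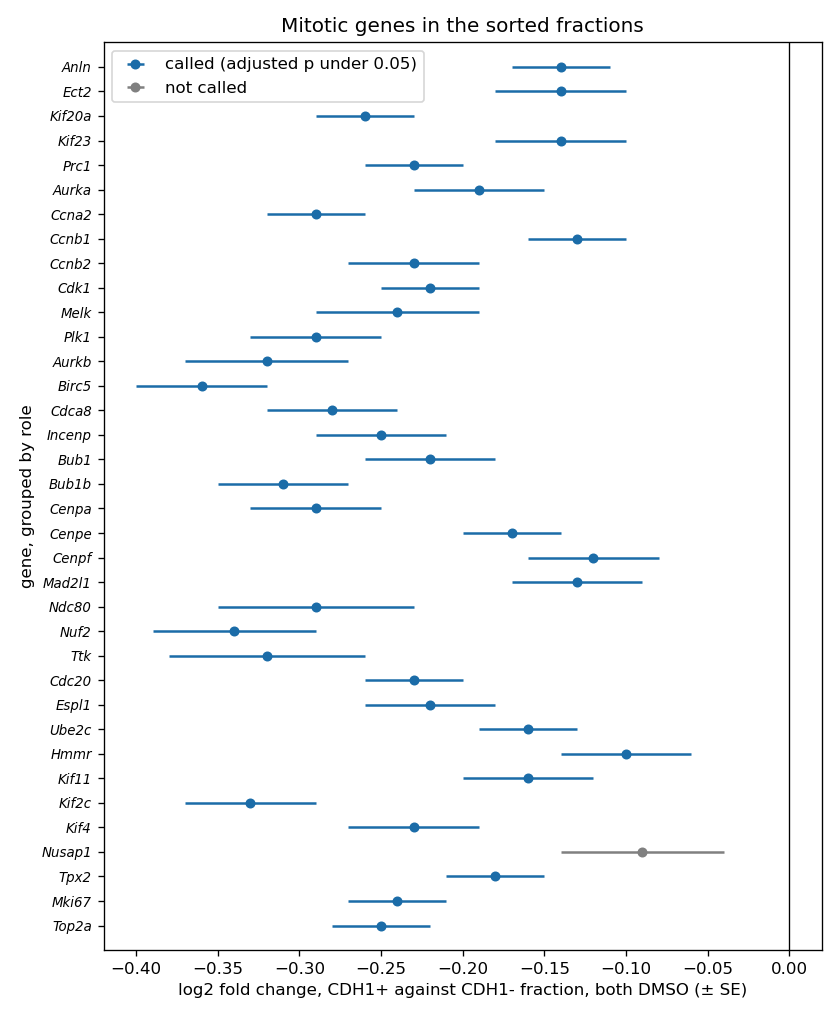
Points give the log2 difference between the CDH1+ and CDH1- fractions in DMSO for each gene, with the standard error as a bar. All 36 points lie below 0, from -0.36 for Birc5 to -0.09 for Nusap1, which is grey because it was not called.

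In the sorted cells the inhibitor raised a few mitotic genes, opposite to its sign at day 2. In CDH1- cells 5 were higher and none lower, where 7.82% of all genes were higher and 10.8% lower. These were Ccna2, cyclin A2, from 168 and 164 CPM to 179 and 186 CPM (0.13 ± 0.03, adjusted p = 0.000352), Mad2l1 (0.13 ± 0.04), Top2a (0.12 ± 0.03), Cdca8, or borealin (0.12 ± 0.04), and Kif23 (0.12 ± 0.04). The count was 3 without DMSO replicate 2 or without inhibitor replicate 2, and 9 without inhibitor replicate 1 of the CDH1- fraction. In CDH1+ cells 9 were higher and none lower, where 8.33% of all genes were higher and 10.5% lower. Cdc20 went from 151 and 159 CPM to 174 and 175 CPM (0.17 ± 0.03, adjusted p = 5.88e-06), Plk1 from 84.9 and 82.5 CPM to 93.6 and 94.3 CPM (0.17 ± 0.04), and Ccna2 from 138 and 135 CPM to 152 in both (0.16 ± 0.03). In these 3 genes the inhibitor libraries lay above. The count was 5 without DMSO replicate 1 or without inhibitor replicate 1 of the CDH1+ fraction. With upper-quartile scaling the counts were 15 in CDH1- and 17 in CDH1+ cells, and with DESeq2 they were 2 and 5.

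The medians were 0.06 and 0.08. In CDH1- cells both inhibitor libraries lay above both DMSO libraries for 23 of the 36 genes and below for 0, against 26% and 27.7% of all genes. In CDH1+ cells the counts were 24 and 1, against 28.5% and 28.6% of all genes. The difference between the 2 fractions in the inhibitor's effect was called by edgeR for none of the 36 genes, where 0.0501% of all genes were called higher and 0.136% lower. At an unadjusted p under 0.05 there were 4, and DESeq2 also called 0. The share of all genes at that unadjusted p was not counted. The difference in sign from day 2 was not tested, since the 2 experiments were fitted apart. Mybl2 was lower with the inhibitor in CDH1- cells (-0.17 ± 0.04) and in CDH1+ cells (-0.14 ± 0.04), where the mitotic genes were not. Summed macrophage markers were 45.9 to 46.2 CPM with the inhibitor in CDH1+ cells, below the DMSO libraries, and 3 of the 6 fell. Their part was not tested.

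In the lentivirus experiment the 36 genes started low and rose further. From uninduced MEFs with the empty virus to day 2, all 36 rose, with a median log2 change of 2.10 and a range of 1.59 to 2.73, where 33.4% of all genes rose and 32.7% fell. Anln rose furthest, from 32.7 and 33.2 CPM to 216 and 222 CPM (2.73 ± 0.07, adjusted p = 5.91e-20). Ube2c rose from 11.1 and 12.1 CPM to 74 and 69.7 CPM (2.63 ± 0.08), Aurka from 10.8 and 10.4 CPM to 65.9 and 61.1 CPM (2.58 ± 0.08), and Ccnb1 from 18.9 and 18.8 CPM to 113 and 104 CPM (2.53 ± 0.07). In all 36 genes both day 2 libraries were above both MEF libraries, as in 41.4% of all genes tested. Mad2l1 rose least (1.59 ± 0.09), and Ndc80, Nuf2 and Prc1, which were not called in the timecourse, rose by 1.78 ± 0.08, 1.70 ± 0.09 and 2.08 ± 0.07.

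Mki67 rose from 56 and 62.6 CPM to 230 and 244 CPM, Top2a from 67.6 and 73.4 CPM to 289 and 310 CPM and Cdk1 from 35.5 and 38.5 CPM to 142 and 124 CPM. Plk1 rose from 13 and 11 CPM to 65.7 and 59.2 CPM, Aurkb from 6.64 and 7.95 CPM to 39.8 and 39.5 CPM and Birc5 from 11.4 and 11.2 CPM to 46 and 51.7 CPM. Cenpa rose from 9.15 and 9.1 CPM to 43 and 45.1 CPM, and Bub1b from 17.4 and 16.7 CPM to 72.1 and 74.5 CPM. No MEF library reached a day 2 library in any of them. Of the 55 other mitotic genes 54 rose (median 1.86), and all 16 replication genes rose (1.37). Foxm1 rose by 2.25 ± 0.07 and Mybl2 by 2.80 ± 0.10, while Cdkn1c fell by 3.77 ± 0.10 on the log2 scale. Summed over the macrophage markers, levels were 1239 to 1348 CPM in these MEFs and 209 to 225 CPM at day 2, and all 6 fell. Their part in the result was not tested.

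Set against the timecourse in a joint fit, uninduced MEFs with the empty virus held less of every mitotic transcript. All 36 were lower than in timecourse MEFs, with a median of -2.77 and a range of -3.25 to -1.82, where 34.4% of all genes were lower and 40.2% higher. Plk1 (-3.25 ± 0.07), Anln (-3.23 ± 0.06), Ube2c (-3.22 ± 0.07) and Ccnb1 (-3.17 ± 0.06) were furthest apart. Anln stood at 298 and 307 CPM in timecourse MEFs and 32.7 and 33.2 CPM with the empty virus, each in its own experiment's scaling. At day 2 it stood at 509 and 497 CPM in the timecourse and 216 and 222 CPM with the empty virus. The day 2 change was larger with the empty virus for all 36 genes, by a median of 1.66, where 29.4% of all genes had a larger and 28.2% a smaller change. Prc1 (2.04 ± 0.07, adjusted p = 5.33e-23), Ube2c (2.02 ± 0.09), Ccnb1 (2.01 ± 0.07) and Anln (2.00 ± 0.07) differed most and Incenp least (0.93 ± 0.08).

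The 2 experiments also differ in the virus, in read layout and in the human RNA added to the timecourse libraries, and these cannot be told apart from the MEFs themselves. Foxm1 (-2.80 ± 0.06) and Mybl2 (-3.71 ± 0.08) were lower in the empty virus MEFs as well, and Btg2, an arrest gene, was higher (2.09 ± 0.05). Summed macrophage markers in the joint scaling were 217 to 219 CPM in timecourse MEFs and 1221 to 1331 CPM in empty virus MEFs, and their part was not tested.

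**Figure D4:**
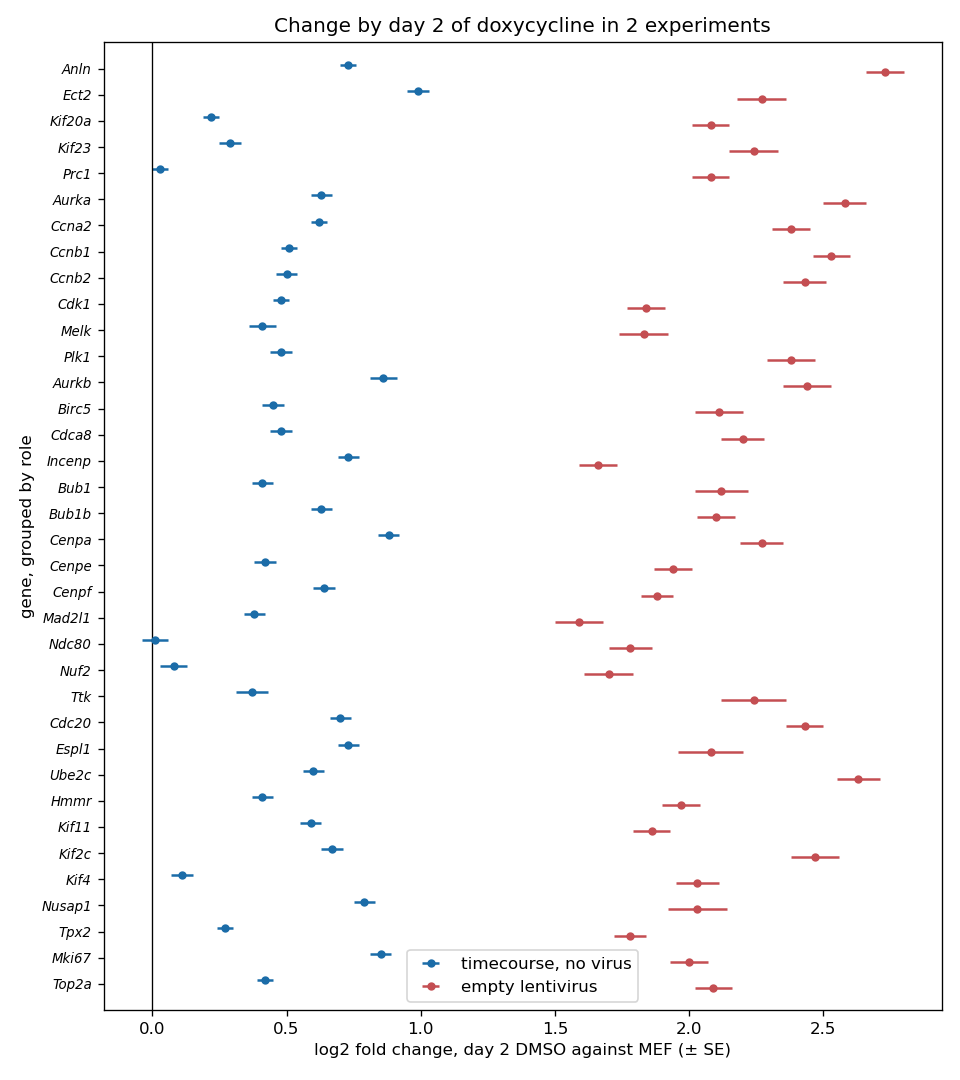
Points give the log2 change from uninduced MEFs to day 2 in DMSO for each gene, with the standard error as a bar, in the timecourse (blue) and with the empty lentivirus (red). Every red point lies between 1.59 and 2.73, to the right of every blue point.

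The Cdh1 virus left the 36 genes without a call. In uninduced MEFs edgeR, which recovered 14% of simulated 1.2-fold increases in this comparison, called none against the empty virus (median 0.09, range -0.08 to 0.37), where 0.612% of all genes were higher and 0.525% lower. At an unadjusted p under 0.05 there were 9, all higher, DESeq2 called 0, and edgeR called 1 when MEF replicate 2 carrying Cdh1 virus, the library with conflicting labels, was left out. Of the 6 macrophage markers 5 were lower with the Cdh1 virus in MEFs, and their sum was 729 to 849 CPM. At day 2 none was called (median -0.09), where 0.146% of all genes were higher and 0.751% lower, with 10 at an unadjusted p under 0.05, all lower, and 0 by DESeq2. From MEFs to day 2 all 36 rose with the Cdh1 virus as well (median 1.93, range 1.39 to 2.44), where 33.4% of all genes rose and 32.6% fell. Anln rose from 42.2 and 35.8 CPM to 214 and 210 CPM (2.44 ± 0.07). The change by day 2 differed between the viruses for none of the 36 in edgeR (median -0.16), where 0.0133% of all genes were called higher and 0.166% lower. At an unadjusted p under 0.05 there were 12, all smaller with the Cdh1 virus, and 0 by DESeq2. The share of all genes at an unadjusted p under 0.05 was not counted for any of these comparisons.

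With the empty virus, SGC0946 at day 2 lowered 6 of the 36 genes and raised none, where 3.52% of all genes were lower and 3.22% higher, with a median of -0.08. Plk1 stood at 65.7 and 59.2 CPM with DMSO and 47.8 and 50.5 CPM with the inhibitor (-0.34 ± 0.08, adjusted p = 0.00783), and Bub1b at 72.1 and 74.5 CPM and 62.9 and 56.7 CPM (-0.30 ± 0.06, adjusted p = 0.00502). In both the libraries were apart. Cdc20 (-0.25 ± 0.07), Ube2c (-0.25 ± 0.07), Aurka (-0.22 ± 0.07) and Incenp (-0.22 ± 0.06) were the other 4. The count was 1 without DMSO replicate 1 or without inhibitor replicate 1, and 2 without DMSO replicate 2 or without inhibitor replicate 2. Bub1b and Incenp were called at day 2 both here and in the timecourse, 2 of 6 in each. Across 9 processing settings Bub1b was called in 9 here and 5 in the timecourse, and Incenp in 6 in each. The Incenp call here was lost whichever library was left out, and that of Bub1b in the timecourse for most libraries left out. The overlap among all genes was not counted. Summed macrophage markers were 173 to 176 CPM with the inhibitor, 3 of the 6 were lower, and their part was not tested.

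With the Cdh1 virus Incenp alone was lower, at 68.2 and 65 CPM with DMSO and 53.6 and 57.9 CPM with the inhibitor (-0.26 ± 0.06, adjusted p = 0.0194), where 2.23% of all genes were lower and 2.82% higher. It was not called without DMSO replicate 1, without DMSO replicate 2 or without inhibitor replicate 1. The inhibitor's effect differed between the viruses for none of the 36 in edgeR, where 0% of all genes were called in either direction. At an unadjusted p under 0.05 there were 4 of the 36, a threshold at which all genes were not counted, and DESeq2 called 0. Between the empty virus and the timecourse it differed for Plk1 alone (-0.27 ± 0.08, adjusted p = 0.0428), where 2.34% of all genes were lower and 1.96% higher. That call held without inhibitor replicate 2 of the empty virus and was lost without any 1 of the other libraries of the 4 groups except DMSO replicate 2 of the empty virus, where 2 genes were called. Foxm1 was lower with the inhibitor with the empty virus (-0.28 ± 0.06) and with the Cdh1 virus (-0.33 ± 0.06).

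Embryonic stem cells stood highest among the lentivirus and ESC groups for nearly all of the 36 genes. All 36 genes were higher than in MEFs with the empty virus, with a median log2 difference of 3.89 and a range of 2.33 to 5.03, where 44.5% of all genes were higher and 44.1% lower. These MEFs were themselves lower than timecourse MEFs for all 36 genes, 0.146-fold at the median. Ccnb1, for one, stood at 166 CPM in both timecourse MEF libraries, in that experiment's scaling. The size of the ESC differences therefore holds for empty virus MEFs, and ESCs were not tested against timecourse cells. Ccnb1 was furthest apart, at 619 and 611 CPM in ESCs against 18.9 and 18.8 CPM, a 32.6-fold difference (5.03 ± 0.07, adjusted p = 3.84e-26). Espl1 stood at 198 and 181 CPM against 7.87 and 5.83 CPM (4.79 ± 0.11), Bub1 at 240 and 246 CPM against 11.5 and 10.9 CPM (4.44 ± 0.09), and Bub1b at 344 and 336 CPM against 17.4 and 16.7 CPM (4.32 ± 0.07). In 35 of the 36 genes both ESC libraries lay above every other library of that fit, as in 39.3% of all genes tested. Nuf2 was nearest, at 59.7 and 63.7 CPM against 11.5 and 13.1 CPM (2.33 ± 0.09). Top2a reached 1099 and 1073 CPM, Mki67 575 and 615 CPM, Cdk1 301 and 309 CPM and Plk1 207 and 180 CPM.

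Against day 2 cells with the empty virus, 35 genes were higher in ESCs and none lower, where 43.4% of all genes were higher and 42.2% lower, with a median of 1.5. Espl1 (2.71 ± 0.09), Ccnb1 (2.50 ± 0.06), Bub1 (2.32 ± 0.08) and Bub1b (2.21 ± 0.06) again led. Anln was the exception, at 218 and 230 CPM in ESCs and 216 and 222 CPM at day 2 (0.03 ± 0.06, adjusted p = 0.617), whereas on the 3 TPM scales it was called lower in ESCs at -0.17, with a median of all genes of -0.23 on the log2(TPM + 0.5) scale. By role, ESCs differed from MEFs most for mitotic exit (median 4.12) and entry (4.00) and least for the central spindle (3.14). Per length Ccnb1 ranked first in ESCs at 462 ± 7.76 TPM, where Ube2c stood at 393 ± 7.28 TPM. In empty virus MEFs Top2a (31 ± 1.91 TPM), Cdc20 (30.9 ± 0.0495 TPM) and Ube2c (30.1 ± 2 TPM) shared the lead within their spread.

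Of the 55 other mitotic genes, 54 were higher in ESCs than in empty virus MEFs and Zwint was lower (median 3.34), and all 16 replication genes were higher (3.50). Mybl2 was far higher (6.64 ± 0.09), from 3.16 and 3.36 CPM to 334 and 316 CPM, and Foxm1 less so (2.44 ± 0.07), from 17.3 and 17 CPM to 98.6 and 87.9 CPM. Of 11 arrest genes 9 were lower than in these MEFs and none higher, with Cdkn2b, the p15 inhibitor (-3.83 ± 0.08), and Cdkn1a, the p21 inhibitor (-3.14 ± 0.07), furthest apart. Against day 2 cells with the empty virus, some of the 11 were higher in ESCs and others lower. On the TPM scale the median of all genes between ESCs and empty virus MEFs moved to -0.44. Macrophage markers summed to 19.9 to 22.1 CPM in ESCs.

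**Figure D5:**
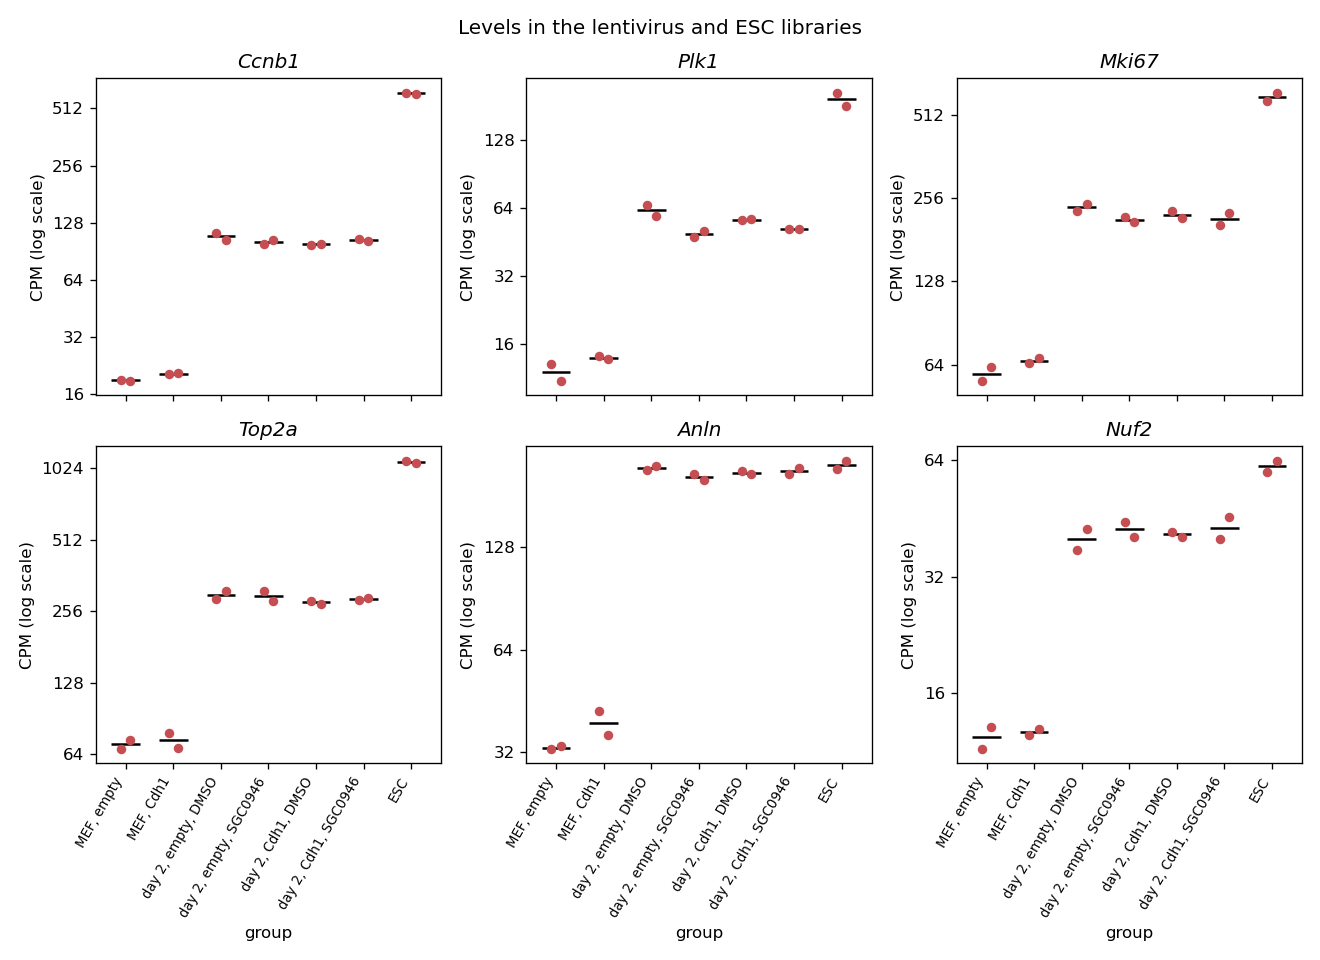
Points give the CPM of 6 genes in each library of the lentivirus and ESC groups on a log axis, and bars give group means. Ccnb1 is at 18.9 and 18.8 CPM in MEFs, 113 and 104 CPM in day 2 cells and 619 and 611 CPM in ESCs, while Anln is at the same height at day 2 and in ESCs.

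Genes whose window holds TTTGAA were set beside those without it, as a description. The 23 with the motif had a median log2 change of 0.59 by day 2 in the timecourse and the 8 without it 0.41. With the empty virus by day 2 the medians were 2.20 and 1.98, and between ESCs and MEFs 3.94 and 3.74. In other comparisons the median change was smaller in size with the motif. These were day 2 to day 4 (-0.89 and -1.15) and day 4 against MEFs (-0.35 and -0.74) in the timecourse. The same held by day 2 with the Cdh1 virus (1.92 and 1.96) and between ESCs and day 2 cells (1.51 and 1.84). Ccnb1, whose window shown above has CCAAT boxes and no TTTGAA, had the largest ESC difference of the 36, and Ccnb2, with TTTGAA beside its start, had 4.09 ± 0.08.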

How the data were processed

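Polyadenylated RNA was sequenced in 36 libraries. The tools RSEM 1.2.4, Bowtie and Trimmomatic and, as builds, hg18 and mm9 are named per the submitters' processing notes, and how the 2 builds were combined is not given in the sources used here. The deposited files hold RSEM expected counts and TPM per gene, which the authors computed per library. Per the labels' protocols, RNA of human 293T cells (20 ng) was added in the timecourse and sort experiments, whose reads were paired, and whether human reads were counted to mouse genes was not tested.

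Expected counts were rounded to whole numbers, filtered (minimum count 10, minimum total 15) and fitted with edgeR 4.0.16 in R 4.3.3 (TMM scaling, robust quasi-likelihood test, Benjamini-Hochberg adjustment over 14473, 13968, 15044 and 14808 genes in the timecourse, sort, lentivirus with ESC, and joint fits). The joint fit of 26 libraries and the comparison of ESCs with day 2 cells were added after the data were seen. Standard errors are the log2 fold change divided by the square root of F. CPM values use the TMM library sizes. DESeq2 1.42.0 and limma 3.58.1 on log2 values of the deposited TPM (pseudocount 0.5 or 0.1, mean TPM of at least 0.5) were alternatives. Effective lengths were shorter than gene lengths by 59.9 to 88.8 bases in the timecourse and equal to them in the lentivirus and ESC libraries. TPM levels were therefore set side by side only within the timecourse or within the lentivirus and ESC libraries. The joint fit was also run on the TPM scale as an alternative, and those results carry this difference in effective length.

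On simulated data with 50 genes changed at each fold size, the timecourse fit for day 2 against MEFs (14158 genes) recovered 62% of 1.2-fold increases, the sort fit for the CDH1 fractions (13838 genes) 66%, the lentivirus fit for the Cdh1 virus in MEFs (14506 genes) 14% and the joint fit for MEFs (14388 genes) 32%. At 1.5-fold they recovered 94%, 86%, 78% and 98%, and at 0.5-fold 98%, 98%, 98% and 92%. In the data 5845 genes were called higher and 4927 lower for day 2 against MEFs, far more than were changed in the simulation. Recovery in such comparisons may therefore differ from these values. The members and lists were chosen with earlier results of these data known. All 36 genes could be named; full values were given for up to 4 genes with the largest called change in a comparison and for those called against the main direction, and other genes came only from fixed lists, up to 4 per list by p. Replicate numbers did not pair libraries: same-numbered libraries correlated between -0.0936 and 0.109 in their deviations from group means.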

Additional observations from a re-analysis of the deposited data

Results flagged for a closer look

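The gap between 1 library and the rest of its group was not tested, since each group has 2 libraries. Their disagreement, as chi-square per gene, ran from 1.86 in CDH1+ cells with DMSO to 13.9 in day 2 cells with the Cdh1 virus and inhibitor. The inhibitor's effect was called different between settings for a few genes, at rates near or below those of all genes. For day 4 full minus day 2, 2.78% of the 36 were higher and 2.78% lower, against 5.61% and 3.57% of all genes. For Anln the effect in the full window at day 4 exceeded that at day 2 by 0.18 on the log2 scale, called in 6 of 9 processing settings. For Mad2l1 the difference was -0.20, called in 3 of 9. For Plk1 the effect at day 2 with the empty virus differed from that in the timecourse by -0.27. That call was made in 6 of 9 processing settings and was lost for most libraries left out. It was 2.78% of the 36, where 346 of all 14808 genes were lower. The change from MEFs to day 2 was larger with the empty virus than in the timecourse for all 36 genes, in a comparison of 2 experiments that also differ in virus and library preparation. Each difference was tested directly in edgeR's quasi-likelihood test.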

How the results depend on the processing

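The counts of genes called at day 2, from day 2 to day 4, between day 4 and MEFs, between CDH1 fractions, by day 2 in the lentivirus experiment and in ESCs stayed within 1.5 times under every alternative run. Leaving out 1 library at a time gave 32 to 33 at day 2, 36 from day 2 to day 4, 27 to 29 lower at day 4 against MEFs, 30 to 33 between fractions, 35 for ESCs against day 2 cells, and 36 for day 2 with either virus, ESCs against MEFs and both joint comparisons of MEFs and of the day 2 change.

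The small counts under the inhibitor moved. At day 2 (6 in the timecourse) the count was 2 with upper-quartile scaling, 1 on log2(TPM + 0.5) or log2(TPM + 0.1), 0 without the TPM filter and 14 with only the groups compared. The early window (1) gave 2 with upper-quartile scaling, 0 on every TPM scale and 4 with only the groups compared. The mid window (9) gave 16 without the count filter and 14 with only the groups compared. The full window (9) gave 16 without the count filter, 4 on both filtered TPM scales and 3 without the TPM filter. Full against early (15) gave 8 with upper-quartile scaling, 4 on both filtered TPM scales and 3 without the TPM filter. The effect at day 4 minus day 2 (1) was 0 on every TPM scale. In CDH1- cells (5) DESeq2 gave 2 and upper-quartile scaling 15, and in CDH1+ cells (9) they gave 5 and 17. With the empty virus (6) every TPM scale gave 1. With the Cdh1 virus (1) every TPM scale and only the groups compared gave 0. The empty virus effect minus that of the timecourse (1) gave 2 with upper-quartile scaling, 2 without the count filter and 0 on every TPM scale. The Cdh1 virus in MEFs (0) gave 1 without the count filter, and the day 2 change between viruses (0) gave 1 with only the groups compared. The cause of these moves was not tested. Leaving out 1 library gave 2 to 3 at day 2, 0 to 1 early, 6 to 10 mid, 4 to 8 full, 7 to 14 full against early, 1 to 3 full against mid, 0 to 1 for day 4 minus day 2, 3 to 9 in CDH1- and 5 to 8 in CDH1+ cells, 1 to 2 with the empty virus, 0 to 1 with the Cdh1 virus, 0 to 1 for the Cdh1 virus in MEFs and 0 to 2 for the empty virus minus the timecourse; it left 0 at 0 in the other 4 comparisons with no call.

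Bub1b at day 4 against MEFs was 0.00 with upper-quartile scaling and on all 3 TPM scales, Mki67 was -0.08 without MEF replicate 1 and 0.12 without MEF replicate 2, and Anln between ESCs and day 2 was -0.17 on all 3 TPM scales. Fits with a replicate block, which the check of pairing did not call for, gave 33 at day 2, 36 from day 2 to day 4, 30 at day 4 against MEFs, 5 for the inhibitor at day 2, 35 between fractions, 5 and 8 in the sorted fractions and 5 with the empty virus, and moved no count by over 1.5 times.

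The share of higher genes among all genes called moved by over 10 points in several comparisons. With upper-quartile scaling it was 63.4% against 48.9% for the inhibitor at day 2, 62.2% against 50.9% mid, 65.4% against 54.6% full, 64.5% against 53.7% full against early, 58.2% against 41.9% in CDH1- and 58.2% against 44.2% in CDH1+ cells, and 27.4% against 45.6% for the joint inhibitor difference. On the TPM scale it was 71.2%, 40.2%, 69% and 77.1% for the inhibitor at day 2, mid, full against early and full against mid (57.7% for the last otherwise), 69% against 48.2% between fractions, 58.8% and 55.7% for the inhibitor in them, 34.9% and 37.5% against 50.6% by day 2 with either virus, 75.7% against 47.8% for the inhibitor with the empty virus, 37.9% against 50.2% in ESCs, and 73.8% against 53.8% and 27.8% against 51% in the joint comparisons. The median log2 change of all genes moved to 0.11 (day 2 to day 4) and 0.13 (joint MEFs) with upper-quartile scaling, and on the TPM scale to -0.17 and -0.13 by day 2 with either virus, -0.44 in ESCs against MEFs, -0.23 in ESCs against day 2, and 0.36 and -0.24 in the joint comparisons. With 2 libraries a group, differences near 1.2-fold were recovered in part only in the simulated data.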
